A study of Mus musculus with 4 samples.

Results

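Antigen presentation and the interferon response were followed through 38 mouse genes in whole brains of embryos that lacked the transcription factors Sox4 and Sox11. The genes were chosen by symbol, and 37 of them had probe sets of their own, 74 in all of the 45037 non-control probe sets on the array. Isg15, a ubiquitin-like modifier, was named only on a probe set shared with another gene and has no value here. The data came from 4 Affymetrix arrays of total RNA taken at embryonic day 14.5, all on a mixed 129SvJ/C57Bl/6J background. The 2 control arrays held Sox4 flox/flox; Sox11 flox/flox embryos. The 2 double-knockout arrays (dko in the labels) held embryos with the same floxed alleles and Brn4::Cre, a transgene that puts the recombinase under control of Brn4 (Pou3f4) sequences, as its name says. Cells keep both genes where neither they nor the cells they came from expressed this driver. By their labels the arrays are biological replicates, with no word on single embryos or pools, so a p-value covers no more than array-to-array spread.

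Class I molecules of the major histocompatibility complex show peptides from inside the cell to T cells. They consist of a heavy chain, such as H2-K1 or H2-D1, and the light chain beta-2-microglobulin (B2m), and are loaded with peptides cut by the immunoproteasome and carried by the Tap transporter. Class II molecules show peptides from engulfed material and are mostly made by professional antigen-presenting cells. Interferons bind receptors on almost every cell type and act through Stat and Irf transcription factors, which switch on a large set of antiviral genes and raise class I genes as well. The embryonic brain has few cells of the immune system, chiefly microglia and other macrophages, and class I levels in neural cells are low.

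The promoters of the genes were searched for elements through which interferons act, and sequences are shown for those with a measured level and a match that lies wholly outside the gene's RefSeq span. The core of the interferon-stimulated response element, taken as GAAA followed after any 2 bases by GAAA again, was searched on both strands in the 250 bases before each RefSeq start site of build GRCm38.p6. It was found in 9 of 35 promoters of the member genes, which is 25.7%, against 2.98% of all 32851 promoters. The palindrome bound by Stat dimers, TTCNNNGAA, was found in 6 of 35, which is 17.1%, against 7.02% of all. A match is a description of these letters, not a site. The members were listed because they respond to interferon, so their higher share is no independent finding. The 9 genes with the first motif were B2m, Bst2, Ifit1, Ifit3, Ifitm2, Isg15, Oas1a, Rsad2 and Stat2. Capitals mark the matches, and overlapping matches run together. Each sequence reads 5′ to 3′ along the gene's strand.
B2m, chr2:122147508-122147597, strand plus: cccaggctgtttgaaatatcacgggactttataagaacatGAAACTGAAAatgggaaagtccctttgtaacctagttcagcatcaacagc
Rsad2, chr12:26456523-26456612, strand minus: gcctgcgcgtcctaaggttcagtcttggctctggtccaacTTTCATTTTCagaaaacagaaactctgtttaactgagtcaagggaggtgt
Bst2, chr8:71537547-71537642, strand minus: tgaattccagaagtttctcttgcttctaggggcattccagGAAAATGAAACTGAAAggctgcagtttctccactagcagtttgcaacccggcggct
Ifit1, chr19:34640745-34640853, strand plus: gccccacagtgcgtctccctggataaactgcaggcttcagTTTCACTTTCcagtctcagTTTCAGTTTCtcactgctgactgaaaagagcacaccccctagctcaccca
Stat2, chr10:128270248-128270325, strand plus: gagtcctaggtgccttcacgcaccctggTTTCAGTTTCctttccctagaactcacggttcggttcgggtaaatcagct
Of these 5 genes, B2m and Rsad2 rose in the knockout, Bst2 and Stat2 did not pass the test, and Ifit1 was too dim to be tested.

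A part of the interferon effectors and the class I light chain B2m were higher in the knockout brains. The heavy chain H2-D1 passed at its brightest probe set only, and that call depended on single arrays. The 4 member receptors and the 4 tested member transcription factors missed the threshold at the brightest probe set. Log2 changes were -0.18 to 0.33 for these receptors, -0.15 to 0.64 for these factors and 0.43 for H2-D1. Differences between these classes were not tested. Each gene was read at its probe set with the highest mean over the 4 arrays. At that probe set 25 genes were bright enough to be tested and 12 were dim, which here means a mean of log2(signal + 16) at or below the 40th percentile of the array, a signal of about 154.6. Rose and fell refer to an adjusted p under 0.05 in limma, and fold changes are on the log2(signal + 16) scale, so those of dim genes come out too small. Of the 25 genes, 7 rose (28.0%), 1 fell (4.0%) and 17 did not pass. Rsad2, among the 7, had a control mean under this filter and was tested because of its knockout level. Over all 12489 genes tested in the same way, 16.3% rose and 11.0% fell, 27.3% together. The members and the gene lists used below were chosen with earlier results of these data known. Their shares and medians beside those of all genes are therefore no independent finding. The median log2 change of the 25 was 0.45, against 0.06 for all genes tested. Counted by probe set, 10 of 39 tested rose (25.6%) and 2 fell (5.13%), against 11.7% and 11.6% of 27022 (23.2% together), with a median log2 change of 0.33 against -0.0096.

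**Figure D1:**
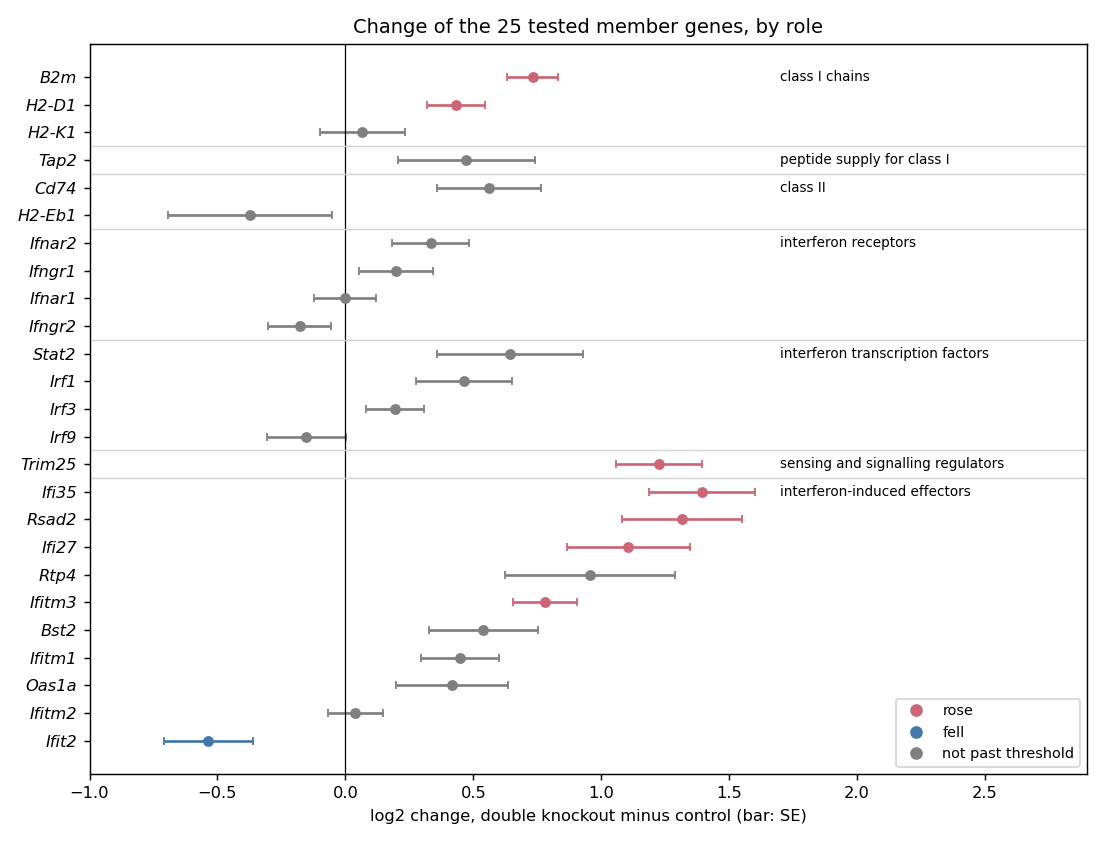
Log2 change (double knockout minus control, with its SE) of the 25 member genes tested, each at its brightest probe set, grouped by role. The genes that rose (red) are B2m, H2-D1, Trim25, Ifi35, Rsad2, Ifi27 and Ifitm3, the gene that fell (blue) is Ifit2, and the 4 receptors lie between -0.18 and 0.33.

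The targeted genes and the tissue were checked first. All 6 Sox11 probe sets tested fell, by log2 changes of -3.18 to -1.19, while 4 of 6 Sox4 probe sets fell and 1 rose, with changes of -2.69 to 1.83. Probe sequences were not used, and those probe sets that detect RNA outside the deleted part are no check of the deletion. Markers of neurons and of neural progenitors were bright on every array, with signals of 4548.9 or more and 1175.3 or more. Summed over 7 neuronal markers, the signal was 120354 to 124968 in controls and 92455 to 94540 in knockouts. Of the 7, 5 fell, beside 11.0% of all genes tested. Over 6 progenitor markers the sums were 65258 to 70059 and 72230 to 73773. Of the 6, 3 rose, beside 16.3% of all genes tested. Median signals of the arrays ran from 262.6 to 287.6. Log2 signals correlated across probe sets at r = 0.974 within each group and 0.962 to 0.966 between groups, and probe sets are not independent replicates.

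Markers of microglia and macrophages moved with the member genes that rose. All 16 tested markers rose, beside 16.3% of all genes tested, with a median log2 change of 1.64. Summed over the 17 markers with a probe set, the signal was 10555 to 11440 in controls and 32994 to 35697 in knockouts. Mpeg1, a pore-forming protein of macrophages, rose by 2.35 ± 0.15, and the complement chains C1qa and C1qb by 2.14 ± 0.12 and 2.01 ± 0.12 (limma adjusted p of 1.27e-05, 7.77e-06 and 7.77e-06). In whole brain RNA, more cells of a type and more RNA per cell cannot be told apart. Their part in the rise of B2m, H2-D1, Trim25 and the effectors was not tested.

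Of the class I chains, B2m rose at both of its probe sets. At 1449289_a_at its signal was 2640.3 and 2732.9 in the 2 controls and 4191.4 and 4768.4 in the 2 knockouts. Both knockout arrays lay above both controls. This was a log2 change of 0.73 ± 0.10 (SE, n = 2 arrays per group), or 1.66-fold, with a limma adjusted p of 0.000717. The other probe set, 1452428_a_at, gave 0.78 ± 0.10 with an adjusted p of 0.000602. H2-D1, a class I heavy chain, read 1279.1 and 1347.6 in controls and 1824.9 and 1732.3 in knockouts at 1425545_x_at. The groups did not overlap, and H2-D1 rose by a log2 change of 0.43 ± 0.11 (limma adjusted p = 0.0202). Leaving out control 1, knockout 1 or knockout 2 ended the H2-D1 call, at 0.40, 0.40 and 0.47 (adjusted p of 0.0826, 0.107 and 0.0663), as did fitting without the variance trend (adjusted p = 0.0665).

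The class I heavy chains did not read alike at all of their probe sets. H2-D1 had 2 other tested probe sets, with log2 changes of 0.29 ± 0.15 (limma adjusted p = 0.189) and -0.13 ± 0.26 (adjusted p = 0.77). H2-K1, another heavy chain, read 1085.9 and 1605.7 in controls and 1394.2 and 1374.2 in knockouts at its brightest probe set, 1451931_x_at. The 2 controls enclosed both knockouts (log2 change 0.07 ± 0.17, adjusted p = 0.811). At 1425336_x_at H2-K1 was 680.8 and 848.2 in controls and 1117.2 and 958.7 in knockouts, which did not overlap and did not pass (0.44 ± 0.15, adjusted p = 0.065). Probe sets with x in their suffix can detect related transcripts, and all 5 tested probe sets of H2-K1 and H2-D1 carry it, so signal may be shared among class I genes. The 8 remaining probe sets of the 2 heavy chains were dim.

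Genes that supply peptides to class I molecules lay close to the filter or under it. Tap2, a subunit of the peptide transporter, was the only one tested, with 139.8 and 148.4 in controls and 223.1 and 190.3 in knockouts. The arrays separated, but the change did not pass (log2 change 0.47 ± 0.27, limma adjusted p = 0.233). Tap1, the other subunit, was dim, with 126.0 and 99.7 in controls and 179.3 and 203.6 in knockouts. Psmb8 and Psmb9, catalytic subunits of the immunoproteasome, were dim as well. Psmb8 read 68.4 and 59.6 against 148.8 and 111.1, and Psmb9 52.4 and 85.0 against 135.8 and 172.1. At these 4 genes both knockout arrays were above both controls, as at 39.8% of all tested genes and 18.4% of all dim genes. With no filter none of the 3 dim genes passed (limma adjusted p of 0.238 for Tap1, 0.215 for Psmb8 and 0.156 for Psmb9).

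Class II genes were dim or did not pass. Cd74, the invariant chain that guides class II molecules through the cell, was 226.4 and 255.9 in controls and 358.6 and 367.1 in knockouts. The groups did not overlap, and Cd74 did not pass (log2 change 0.56 ± 0.20, limma adjusted p = 0.0727). It passed when arrays were centred on their medians (0.60, adjusted p = 0.0458) and without the variance trend (adjusted p = 0.0453). H2-Eb1, a class II beta chain, read 251.6 and 147.3 in controls and 168.7 and 125.2 in knockouts. The H2-Eb1 groups overlapped (-0.37 ± 0.32, adjusted p = 0.44). H2-Aa and H2-Ab1, an alpha and a beta chain, were dim at all of their probe sets. At its brightest probe set H2-Ab1 had 51.2 and 14.4 in controls and 130.5 and 119.5 in knockouts, and its other 2 probe sets overlapped between groups.

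Interferon receptors missed the threshold at the brightest probe set of each, and probe sets of 1 gene disagreed. Ifnar1 and Ifnar2 form the receptor for type I interferons, and Ifngr1 and Ifngr2 that for interferon gamma. Ifnar2 read 714.3 and 628.1 in controls and 911.7 and 788.1 in knockouts at 1451462_a_at (log2 change 0.33 ± 0.15, limma adjusted p = 0.136). At 1440169_x_at the order was turned, with 932.1 and 858.3 in controls and 581.1 and 657.2 in knockouts. There Ifnar2 fell by -0.52 ± 0.14 (adjusted p = 0.0259), while 1427691_a_at gave 0.30 ± 0.19 (adjusted p = 0.279). The fall was lost when control 1, knockout 1 or knockout 2 was left out, at -0.46, -0.44 and -0.61 (adjusted p of 0.101, 0.139 and 0.0628), when the filter was dropped (adjusted p = 0.057) and when the variance trend was (adjusted p = 0.0579).

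The 2 probe sets of Ifnar1 also gave different values, and their difference was not tested. At 1449026_at it read 1405.5 and 1252.4 in controls and 1352.3 and 1301.2 in knockouts, with a log2 change of -0.00028 ± 0.12 (limma adjusted p = 0.999). At 1442222_at it read 514.8 and 485.6 against 358.5 and 331.9, which did not overlap and just missed the threshold (-0.52 ± 0.17, adjusted p = 0.0559). Which transcript parts these probe sets detect was not analysed here. Ifngr1 had a log2 change of 0.20 ± 0.14 (adjusted p = 0.361). The 2 probe sets of Ifngr2 gave -0.18 ± 0.12 and 0.04 ± 0.17 (adjusted p of 0.324 and 0.892).

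None of the 4 tested transcription factors passed at any of 8 probe sets (limma adjusted p of 0.103 or more), 2 of which had an unadjusted p under 0.05. Irf1, induced by interferon gamma, read 376.8 and 300.8 in controls and 472.2 and 467.6 in knockouts (log2 change 0.46 ± 0.19), with no overlap. Stat2 and Irf9 belong to the complex that binds the response element. Stat2 was 119.3 and 145.0 in controls and 185.4 and 247.9 in knockouts at 1421911_at (0.64 ± 0.28, adjusted p = 0.131), and gave -0.29 ± 0.29 at its other probe set. Irf9 had 764.4 and 784.0 against 623.0 and 775.2, which overlap (-0.15 ± 0.15, adjusted p = 0.517). Irf3, which acts directly after virus sensing, had 4 tested probe sets, with log2 changes from -0.38 to 0.24 and adjusted p of 0.25 to 0.946. Irf7, which amplifies type I interferon production, was dim, with 140.6 and 100.7 in controls and 177.9 and 190.6 in knockouts.

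Trim25, a ubiquitin ligase that activates an RNA sensor of the interferon system, rose at both tested probe sets. At 1419879_s_at it read 506.0 and 407.0 in controls and 1199.9 and 976.4 in knockouts. The lower knockout array was above the higher control, and Trim25 rose by a log2 change of 1.23 ± 0.17 (SE, n = 2 arrays per group), or 2.34-fold (limma adjusted p = 0.000786). The second probe set, 1425974_a_at, had 350.7 and 338.4 against 743.7 and 787.9 and gave 1.12 ± 0.16 (adjusted p = 0.000945). The remaining one was dim and overlapped between groups. Ifih1, a sensor of double-stranded RNA, and Usp18, a protease that removes Isg15 from proteins and restrains receptor signalling, were dim. Ifih1 read 141.6 and 60.2 in controls and 139.9 and 159.0 in knockouts, which overlap, and Usp18 89.4 and 69.5 against 141.8 and 110.5, which do not.

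**Figure D2:**
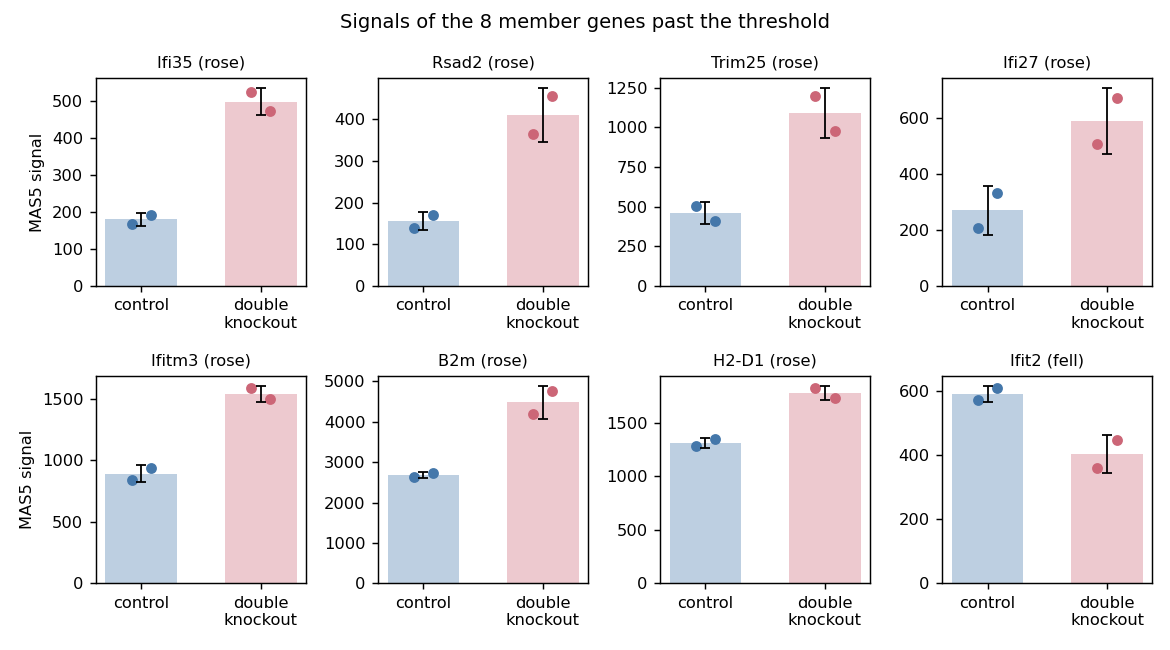
MAS5 signal on each array (points), group mean (bar) and SD (line, n = 2) of the 8 member genes past the threshold, each at its brightest probe set and on its own axis from 0. Both knockout arrays lie above both controls for the 7 genes that rose, as for Ifi35 with 166.7 and 191.9 against 522.3 and 470.9, and below them for Ifit2.

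Among the interferon-induced effectors 10 were tested at their brightest probe set, of which 4 rose, 1 fell and 5 did not pass, beside 16.3% and 11.0% of all genes tested. Ifi35, an interferon-induced protein with a leucine zipper, read 166.7 and 191.9 in controls and 522.3 and 470.9 in knockouts at 1445897_s_at. The groups were far apart, with a log2 change of 1.39 ± 0.21, or 2.63-fold (limma adjusted p = 0.00119). A second probe set, 1459151_x_at, rose as well (0.78 ± 0.22, adjusted p = 0.0256), and lost its call when knockout 1 (0.82, adjusted p = 0.109) or knockout 2 (0.74, adjusted p = 0.137) was left out and when the filter was dropped (adjusted p = 0.0807). The last, 1424617_at, was dim, with 36.7 and 42.2 in controls and 178.7 and 199.2 in knockouts. It was the only dim member probe set that passed when the filter was dropped (1.89 ± 0.36, adjusted p = 0.0208), a fit in which 4.82% of all 45037 probe sets rose and 4.77% fell.

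Rsad2 (viperin), an antiviral enzyme, read 139.9 and 170.0 in controls and 364.8 and 455.9 in knockouts. Rsad2 rose by a log2 change of 1.32 ± 0.23, or 2.49-fold (limma adjusted p = 0.00314), and just missed without knockout 2 (1.16, adjusted p = 0.0575). Its 2 other probe sets were dim. In controls the mean log2 level of the tested probe set, 7.412, lay just under the filter at 7.415. Rsad2 was therefore tested only because of its knockout level, 8.728. With no filter it still passed (limma adjusted p = 0.0213). Ifi27, an interferon-induced membrane protein of mitochondria, read 207.5 and 330.2 in controls and 505.9 and 671.1 in knockouts. The controls differed more from each other than those of the other genes that rose, yet did not reach the knockouts (1.11 ± 0.24, 2.15-fold, adjusted p = 0.00878). Without knockout 2 the Ifi27 change was 0.91 and did not pass (adjusted p = 0.115), nor did it pass without the variance trend (adjusted p = 0.0555).

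The 3 neighbouring Ifitm genes encode small membrane proteins that block entry of viruses, and they did not read alike. Ifitm3 was 844.9 and 940.5 in controls and 1586.5 and 1496.1 in knockouts. It rose by a log2 change of 0.78 ± 0.13, or 1.72-fold (limma adjusted p = 0.00186). Ifitm1 had 577.5 and 681.9 against 808.1 and 921.2, which did not overlap and did not pass (0.45 ± 0.15, adjusted p = 0.0569). Ifitm1 passed with median centring (0.49, adjusted p = 0.0262), with the filter at the 60th percentile (adjusted p = 0.0466), without control 2 (0.57, adjusted p = 0.0341) and with the replicate number as a block (adjusted p = 0.0453). Ifitm2 read 1964.7 and 2046.9 in controls and 2156.5 and 1968.5 in knockouts, which overlap (0.04 ± 0.11, adjusted p = 0.831). The differences between these genes were not tested.

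Ifit2, an RNA-binding protein that limits viral translation, was the member gene that fell. It read 572.9 and 609.0 in controls and 361.8 and 447.1 in knockouts. The groups did not overlap (log2 change -0.54 ± 0.17, limma adjusted p = 0.0485). The call was lost with any of the 4 arrays left out, at -0.58 and -0.49 without control 1 and control 2 (adjusted p of 0.0747 and 0.128) and at -0.39 and -0.68 without knockout 1 and knockout 2 (adjusted p of 0.231 and 0.0695). It was also lost with quantile normalization (adjusted p = 0.0614), without the filter (adjusted p = 0.111) and without the variance trend (adjusted p = 0.0723). Its relatives Ifit1 and Ifit3 were dim. Ifit1 read 25.8 and 72.4 in controls and 93.5 and 41.0 in knockouts, which overlap, and Ifit3 125.4 and 114.5 against 186.0 and 153.1, which do not.

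The remaining effectors did not pass or were dim. Rtp4, an interferon-induced chaperone of membrane receptors, read 110.3 and 207.4 in controls and 240.6 and 397.4 in knockouts. The arrays of each group differed widely, and the log2 change of 0.96 ± 0.33 did not pass (limma adjusted p = 0.0621). Rtp4 passed without control 2 (1.37, adjusted p = 0.00356), with median centring (1.00, adjusted p = 0.005) and with the replicate block (adjusted p = 0.0143). Leaving out control 1, knockout 1 or knockout 2 gave 0.54, 1.30 and 0.61 (adjusted p of 0.224, 0.091 and 0.387). Bst2 (tetherin), which holds budding viruses at the cell surface, was 212.5 and 224.8 against 310.9 and 339.7 (0.54 ± 0.21, adjusted p = 0.0948). It passed without the variance trend (adjusted p = 0.0462). Oas1a, which makes an activator of an antiviral ribonuclease, was 207.2 and 245.8 against 313.3 and 300.7 (0.42 ± 0.22, adjusted p = 0.198). Neither gene overlapped between groups. Oasl2, a relative of Oas1a, and Mx1, an antiviral GTPase, were dim. Oasl2 read 65.7 and 145.0 against 160.8 and 117.8, which overlap. Mx1 was the only one of the 12 dim genes with both knockout arrays below both controls, at 45.4 and 46.1 against 3.6 and 35.5.

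**Figure D3:**
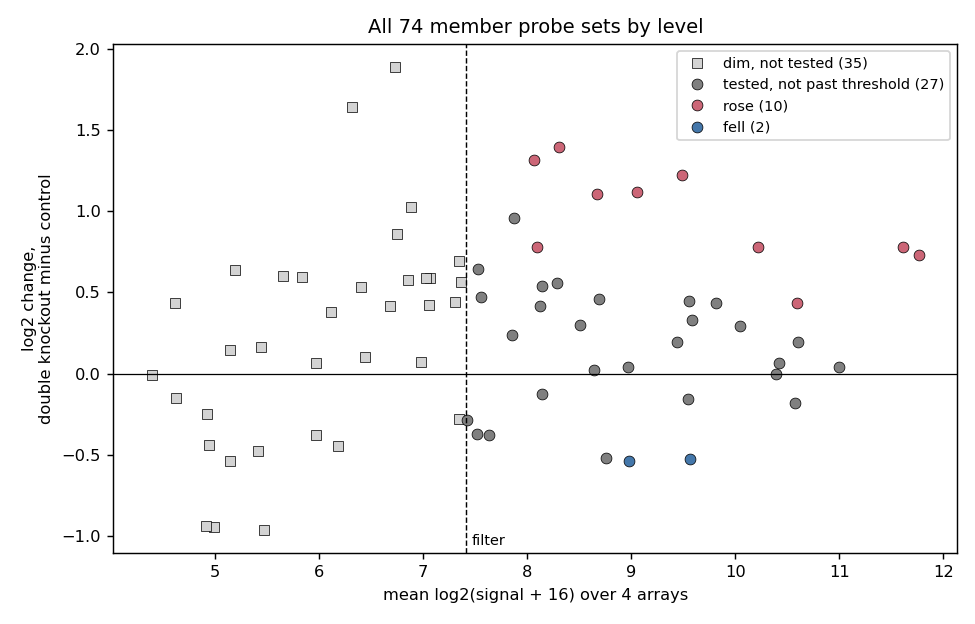
Log2 change (double knockout minus control) of all 74 member probe sets against their mean log2(signal + 16) over the 4 arrays, with the filter at 7.41 as a dashed line. The 35 dim probe sets lie left of the line and scatter on both sides of 0, and the 10 that rose and the 2 that fell lie right of it.

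The dim genes were Tap1, Psmb8, Psmb9, H2-Aa, H2-Ab1, Irf7, Ifih1, Usp18, Ifit1, Ifit3, Oasl2 and Mx1. At their brightest probe sets signals ran from 3.6 to 203.6. These genes are treated as near background, a level that was not measured here. Both knockout arrays lay above both controls at 8 of the 12, below at 1, and overlapped at 3. Of 5704 genes that were dim in the same way, 18.4% lay above and 18.4% below. With no filter none of the 12 passed (limma adjusted p of 0.0839 to 0.744), and 2 had an unadjusted p under 0.05. Over all 35 dim member probe sets 11 lay above, 4 below and 20 overlapped, against 16.7% above and 20.4% below for all dim probe sets. Of the 25 tested genes, 18 had both knockout arrays above both controls (72.0%) and 2 below (8.0%), against 39.8% and 27.2% of all genes tested. By probe set these counts were 25 and 6 of 39, against 31.3% and 31.6% of all tested.

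Other genes of the same pathways were taken from a list. Of 115 listed, 101 had a probe set of their own and 58 were tested, of which 18 rose (31.0%), 3 fell (5.17%) and 37 did not pass, beside 16.3% and 11.0% of all genes tested. Irf8 and Pml, among the 18, had control means under the filter and were tested because of their knockout levels. The median log2 change of the list was 0.34, against 0.06 for all genes tested. Rises in this list were fewer without knockout 1 or knockout 2, and falls were fewer whichever array was left out. Fewer probe sets were called over the whole array in each of these fits as well. The list holds H2-Ke6, which lies in the histocompatibility region and encodes an enzyme of steroid and fatty acid metabolism. By group, 6 of 14 genes listed under class I processing rose and 1 fell. The 6 were H2-Ke6 itself (log2 change 0.89), Tapbp (0.53), Psme1 (0.36), Calr (0.32), Pdia3 (0.30) and Canx (0.27). Of class II processing 2 of 6 rose, and of signalling 2 of 9 rose and 1 fell. Of the sensors 1 of 6 rose, and of further interferon targets 7 of 23 rose and 1 fell. Interferon genes themselves were dim. Ifnb1, Ifng, Ifna2 and Ifna4 had signals of 2.8 to 82.1 in controls and 4.3 to 74.3 in knockouts, and all 4 overlapped between groups.

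The 6 largest rises in this list were those of Parp12, Ctss, Cmpk2, Irf8, Pml and Lgals9. Parp12, an interferon-induced ADP-ribosyltransferase, read 214.5 and 192.3 in controls and 703.5 and 766.7 in knockouts (log2 change 1.78 ± 0.18, limma adjusted p = 0.000155). Cmpk2, a nucleotide kinase whose gene is next to Rsad2, read 822.8 and 815.8 against 1969.0 and 2221.9 (1.34 ± 0.12, adjusted p = 9.61e-05). Ctss, a lysosomal protease that trims the invariant chain, rose by 1.76 ± 0.10 and is also among the macrophage markers used here. Irf8, a transcription factor of macrophages, rose by 1.07 ± 0.24, Pml, a nuclear body protein, by 1.07 ± 0.28, and Lgals9, a galectin, by 1.06 ± 0.20 (adjusted p of 0.0105, 0.0216 and 0.00456). In controls the mean log2 levels of Irf8 and Pml, 7.412 and 7.327, lay under the filter at 7.415. Both were therefore tested only because of their knockout levels, 8.482 and 8.397. With no filter Irf8 still passed (limma adjusted p = 0.0464) and Pml did not. Irf8 was not called without knockout 1 (1.06) or knockout 2 (1.08), Pml without control 2 (0.79), knockout 1 (0.83) or knockout 2 (1.31), and Lgals9 without knockout 1 (0.93).

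The 3 that fell were Cd1d1, Socs3 and Adar. Cd1d1, which presents lipids to a class of T cells, read 2787.6 and 3332.9 in controls and 520.9 and 602.7 in knockouts. This was a log2 change of -2.41 ± 0.14 (limma adjusted p = 6.84e-06), opposite in sign to the class I chains B2m and H2-D1. Socs3, an inhibitor of cytokine signalling, changed by -0.76 ± 0.19 (adjusted p = 0.0174), and Adar, an RNA-editing enzyme, by -0.38 ± 0.12 (adjusted p = 0.0406). The Socs3 call was lost without control 1 (-0.60), knockout 1 (-0.76) or knockout 2 (-0.76), and that of Adar without control 1 (-0.36), control 2 (-0.39) or knockout 2 (-0.25). With no filter Socs3, Adar and Pml were not called (adjusted p of 0.0577, 0.0768 and 0.082). Without the variance trend Adar and Pml were not called (adjusted p of 0.126 and 0.0567), and with median centring Adar was not (-0.34, adjusted p = 0.0842).

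Vascular and mesenchymal markers moved too, and by less than those of microglia and macrophages. Of 12 endothelial markers 6 rose, beside 16.3% of all genes tested. Their median log2 change was 0.39, against 0.45 for the member genes. Their summed signal was 10508 to 11421 in controls and 14286 to 14842 in knockouts. Egfl7 (0.67), Tek (0.65) and Cdh5 (0.50), proteins of vessel walls, had the largest changes on all 4 arrays. Without control 1 these were 0.40, 0.42 and 0.51. Cdh5 was not called with any 1 of the 4 arrays left out (limma adjusted p of 0.0511 to 0.103). None of the 12 was called without control 1 or without knockout 1 (limma, 5 of 12 at an unadjusted p under 0.05 in either), and 1 was without knockout 2. With no filter 2 were called, and without the variance trend 1 was. Of 12 markers of pericytes, meninges and mesenchyme 6 rose, beside 16.3% of all genes tested. The median was 0.37, with sums of 42037 to 44064 in controls and 55661 to 55862 in knockouts. Postn (0.76), a matrix protein, and Rgs5 (0.42), a pericyte regulator, were among them, while Kcnj8, a potassium channel, did not pass (0.44). This count was 3 without control 1, 3 without knockout 2, 3 with no filter and 1 without the variance trend. Postn was not called without knockout 2 (0.59). Rgs5 was not called without control 1 (0.22), knockout 1 (0.35) or knockout 2 (0.49), nor with no filter or without the variance trend. Fewer probe sets were called over the whole array as well with an array left out, with no filter or without the variance trend. The part of these vascular and mesenchymal markers was not tested.

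Lymphocyte markers were low in both groups. All 9 with a probe set were dim, with single signals of 3.7 to 209.6 and sums of 543.5 to 558.0 in controls and 324.6 to 458.6 in knockouts. None of the 4 red blood cell markers tested passed (limma adjusted p of 0.0972 or more, 1 with an unadjusted p under 0.05), with sums of 35801 to 35829 and 36628 to 38023. Of 6 dendritic cell markers 4 were dim. Siglech, also expressed by microglia, did not pass (0.60), and Zbtb46, also expressed in other tissues, fell by a log2 change of -1.41 ± 0.17 (adjusted p = 0.000439).

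**Figure D4:**
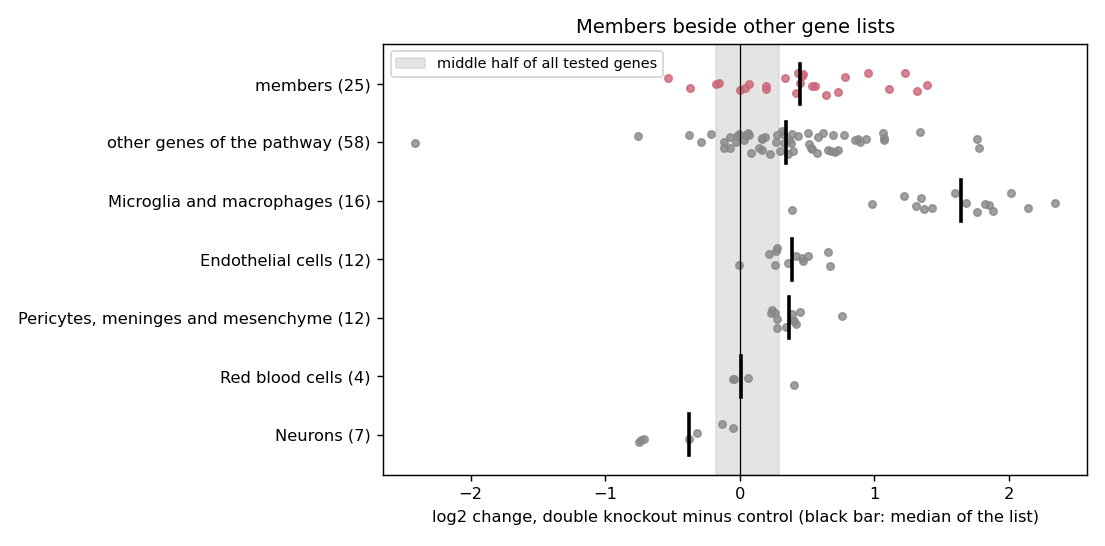
Log2 change (double knockout minus control) of each tested gene in the member list and in 6 other lists, 1 point per gene at its brightest probe set with a black bar at the list's median. The grey band spans the quartiles of all 12489 genes tested, -0.17 to 0.29. The member median of 0.45 lies right of the band and well below the microglia and macrophage median of 1.64.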

How the data were processed

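Total RNA of whole brains at embryonic day 14.5 was labelled with biotin and hybridised to 1-colour Affymetrix arrays, per the labels' protocols. The deposited values are intensities of probe sets, not logged, and per the submitters' processing notes the authors used MAS5 5.0. The mean after trimming 2% at either end was 1000 on every array, so arrays had been scaled before deposit. No source used here names a genome build. Detection calls and probe sequences were not used, and the number of arrays limits the precision.

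Array controls (64 of 45101 probe sets) were left out. Symbols came from the platform's annotation table. All 37 members with a probe set matched a RefSeq gene by ID, and 0 had another symbol there. Of the 38 members 31 were in the RefSeq promoter table (GRCm38.p6). Groups came from sample titles. Values were log2(signal + 16). Probe sets with a mean above the 40th percentile were compared, dko minus control, with limma 3.58.1 (R 4.3.3), letting the prior variance follow the level, and p-values of all 27022 kept were adjusted by Benjamini-Hochberg, at 0.05. The fit had 2 residual and 8.33 prior degrees of freedom. The steps were tested on simulated data. All members with a probe set were named; from the other pathway genes the 6 largest rises and up to 6 largest falls past the threshold, and from the microglia, endothelial and mesenchymal marker lists the 3 largest changes. The members and lists were chosen with earlier results of these data known. Alternatives were other scalings, pseudocounts of 1 and 64, other filters, other variance models, each array left out, a gene's probe sets averaged, and a block for the replicate number. Counts of the other lists under these settings were added after the data were seen.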

Additional observations from a re-analysis of the deposited data

How the results depend on the processing

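Of the 7 member genes that rose, B2m, Ifitm3, Ifi35 and Trim25 kept their call at their brightest probe set under every alternative that tested them, and no called member changed sign under any. The 60th-percentile filter leaves out Ifi27, Ifi35 and Rsad2. Without replicates in turn, the number of member genes that rose was 4 to 9 (main 7), of member probe sets that rose 6 to 13 (main 10), of member probe sets that fell 0 to 1 (main 2), of member genes that fell 0 (main 1), and of all probe sets changed 3132 to 5422 (main 6277). The member gene that fell, Ifit2, was lost with quantile normalization (0), no filter (0) and no variance trend (0). Member probe sets that fell numbered 1 with quantile normalization, 0 with no filter and 1 with no variance trend. With no variance trend 3114 probe sets changed in all. The causes of these differences were not tested. With median centring 10 member genes and 14 member probe sets rose, and the median of all tested probe sets was 0.03. Over all probe sets 3578 rose and 2839 fell there, against 3152 and 3125 in the main fit. With the replicate number as a block, which leaves 1 residual degree of freedom, 9 member genes rose and 1 fell, 12 member probe sets rose and 2 fell, and 6844 probe sets changed in all. Same-numbered arrays did not deviate together across the tested probe sets (r = 0.0028). The labels do not say whether the numbers pair the arrays, and this value cannot decide it. Where an array was left out, the spread came from the other group's pair alone, so the lone array is taken to vary as that pair does. With 2 arrays per group a change that missed the threshold is not shown to be absent, and dim probe sets have little signal over background.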
